A study of Mus musculus with 12 samples.

Results

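Wnt ligands are secreted, lipid-modified glycoproteins that bind Frizzled receptors on the same or neighbouring cells. With the co-receptors LRP5 or LRP6 they stabilise beta-catenin, which then activates target genes with TCF/LEF factors, and through ROR or RYK receptors they act without beta-catenin. In the healthy liver, Wnt ligands from endothelial cells maintain the hepatocytes around the central vein, and LGR5, a receptor for R-spondins, strengthens the response of a cell to Wnt.

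The genes described are 10 Wnt ligand genes chosen by name, with earlier results of these data known (Wnt3, Wnt3a, Wnt4, Wnt5a, Wnt6, Wnt7a, Wnt7b, Wnt9a, Wnt10a and Wnt11), of 19 mouse Wnt ligand genes and 47069 genes in the count table. They were measured by RNA sequencing of cells from organoids of murine liver cancer, sorted into LGR5- and LGR5+ cells, untreated or treated with 5-FU (5-fluorouracil, an antimetabolite chemotherapy), which makes 4 groups of 3 libraries. The labels give the strain C57BL/6 and a genotype with the LGR5-DTRGFP allele, in which the Lgr5 promoter drives green fluorescent protein and the diphtheria toxin receptor, so that LGR5+ means GFP-positive. All groups share this origin: by the methods of the study, tumors were induced with the carcinogen diethylnitrosamine, organoids were grown from tumor cells in medium with R-spondin-1, with Wnt3a-conditioned medium at initiation, and dead and CD45-positive cells were excluded by sorting. The age of the mice, the dose and duration of 5-FU for these cells, and whether the 3 libraries of a group came from separate cultures or animals were not given for these libraries, so P values measure only the spread between these libraries, which may be technical.

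Between 13750591 and 19323514 reads were counted per library. At this depth 3 reads, the limit that a count of 0 allows, were 0.165 to 0.220 CPM (counts per 1000000 reads, scaled by the TMM method), and such limits cover counting error only. Mitochondrial genes took 6.93% of the reads in untreated and 6.44% in 5-FU LGR5- replicate 3, but 1.47% to 3.08% in the other libraries. The labels name liver cancer, yet among 7 hepatocyte markers Ttr, Hnf4a, Cps1 and Tat held at most 2 reads in any library, Apoa1 held 0 to 11 and Alb 2 to 33, while Afp, the fetal liver protein alpha-fetoprotein, held 178 to 966 reads (9.88 to 54.3 CPM). The epithelial markers Epcam (674 to 1480 CPM) and Krt19 (374 to 4480 CPM) were abundant in every library, as was Sftpc, a surfactant gene of the lung alveolus (2620 to 17300 CPM). Lgr5 itself did not separate the sorted groups. It held 419 to 649 reads in untreated LGR5- and 380 to 476 in untreated LGR5+ libraries (log2 fold change -0.17, SE 0.23, adjusted P = 1), and 312 to 490 against 465 to 487 reads after 5-FU (0.11, SE 0.23, adjusted P = 0.842). The names LGR5- and LGR5+ therefore stand for the labelled sort.

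What the Wnt genes share by sequence is shown first, because it bears on how far their reads can be told apart. Wnt proteins carry a serine that the acyltransferase Porcupine modifies, within a stretch kept across the family. The 24 coding bases of this stretch were found in all 18 Wnt ligand genes searched, with Wnt8a left out. Those of the 7 genes with enough reads for a test are given from GENCODE M21 transcripts on GRCm38, with the serine codon in capitals.
Wnt6, chr1:74784172-74784195, plus strand: tgccatgggcttTCGggttcctgc
Wnt10a, chr1:74803156-74803179, plus strand: tgccacggcaccTCAggcagctgc
Wnt7b, chr15:85537812-85537835, minus strand: tgtcacggtgtgTCAggctcctgt
Wnt7a, chr6:91366272-91366295, minus strand: tgccatggtgtgTCAggctcctgt
Wnt4, chr4:137296345-137296368, plus strand: tgtcacggggtgTCGggctcctgc
Wnt5a, chr14:28522515-28522538, plus strand: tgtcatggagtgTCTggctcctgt
Wnt11, chr7:98850260-98850283, plus strand: tgccatggggtgTCTggctcctgc
In each of the 7 genes the stretch lies within 1 coding exon. Beyond such motifs the genes differ. The longest identical run between transcripts of any pair of the 19 genes was 29 bases, between Wnt5a and Wnt5b, and it was 23 bases between Wnt7a and Wnt7b. On the opposite strand, AU022754 shares 324 bases of exon with Wnt7b and held 13 to 30 reads per library, against 373 to 2291 for Wnt7b, while Gm2670 and Gm8398, which overlap exons of Wnt5a and Wnt11, held 0 reads. Whether strand was used in counting was not given in the sources used here.

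The 10 genes differed in level by orders of magnitude, and the same genes led in every group. Levels between genes were compared as CPM per kb of exon. Wnt6 was highest, at 160 ± 42.2 (SD, n = 3) in untreated LGR5- and 143 ± 49.6 in untreated LGR5+ cells, and at 298 ± 138 and 364 ± 87.7 CPM per kb after 5-FU. Wnt10a followed with 34.9 ± 6.17, 34.1 ± 7.54, 94.1 ± 36.4 and 104 ± 29.4 CPM per kb in the same order. The libraries of Wnt6 and of Wnt10a did not overlap in any group. Together these genes made up 86.9% to 94.3% of the summed level per kb of all 19 Wnt ligand genes in a library. Wnt6 and Wnt10a are neighbours: Wnt6 lies at chr1:74771892-74785322 and Wnt10a at chr1:74791516-74804179 (GRCm38), on the same strand, 6193 bases apart with no annotated gene between them.

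**Figure D1:**
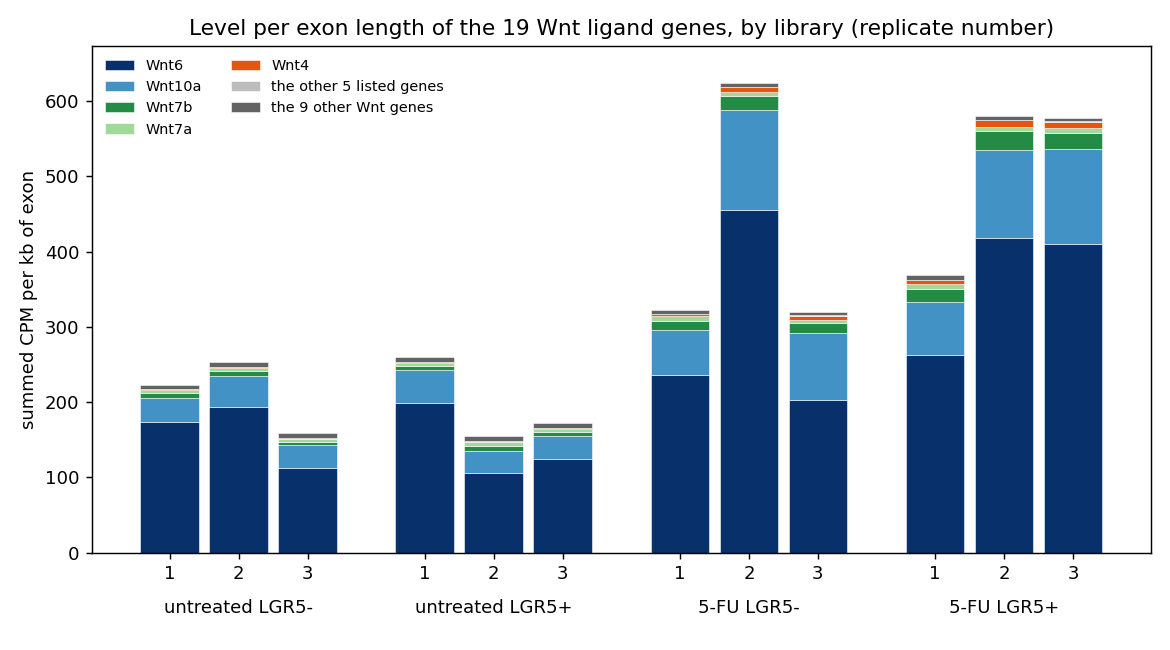
Stacked bars give the summed CPM per kb of exon of the 19 Wnt ligand genes in each of the 12 libraries, with replicate numbers under the bars and groups below. Wnt6 and Wnt10a fill 86.9% to 94.3% of each bar, and the bars of 5-FU libraries reach 319 to 624 against 155 to 260 CPM per kb in untreated ones.

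Wnt7b came next in every group, followed by Wnt7a in 3 groups and by Wnt4 in 5-FU LGR5+ cells. Wnt7b had 5.33 ± 0.957 and 6.21 ± 0.648 CPM per kb in untreated LGR5- and LGR5+ cells (SD, n = 3), and Wnt7a had 4.45 ± 0.182 and 4.37 ± 0.808. Their libraries overlapped in untreated LGR5- cells but not in the other groups. Wnt4 was below Wnt7a in untreated cells, at 0.693 ± 0.0998 and 0.728 ± 0.154 CPM per kb, with no overlap. After 5-FU, Wnt4 reached 4.80 ± 1.82 in LGR5- and 7.20 ± 2.53 CPM per kb in LGR5+ cells, where it overlapped with Wnt7a at 5.45 ± 1.28 and 6.54 ± 0.838. Wnt5a and Wnt11 stayed at or under 0.412 CPM per kb in every library. The order of the means of the 10 genes was the same in each group with the length of the longest transcript in place of all exons.

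At the bottom stood 3 genes whose reads did not allow a test. Wnt3a, the ligand supplied in the medium as protein, held 0 reads in all 12 libraries, which allows at most 0.220 CPM in the shallowest one. Wnt3, which in the intestine feeds Lgr5-expressing stem cells, held 0 to 5 reads, and Wnt9a, a ligand of joint formation, 0 to 9 reads. Of the 9 Wnt ligand genes outside the list, Wnt5b (80 to 222 reads) and Wnt16 (99 to 275 reads) had enough reads for a test. Wnt2, which liver endothelium expresses, held 0 reads in every library, and the endothelial Wnt9b held 0 to 9. Wnt2b held 1 to 14, Wnt1 0 to 4, Wnt10b 0 to 8, and Wnt8a and Wnt8b at most 1 read.

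In LGR5+ cells, 5-FU-treated libraries were compared with untreated ones by edgeR's quasi-likelihood test on the counts of all 12 libraries, with P values adjusted by the Benjamini-Hochberg method over 16157 genes. Wnt4, Wnt7b, Wnt10a, Wnt6 and Wnt11 rose, 5 of the 7 genes tested, and none fell. Of all genes tested, 9.66% rose and 6.37% fell by the same rule. Wnt11 held 10 or more reads in 6 libraries only, 5 of them from 5-FU-treated cells, so that its passing of the filter on low reads was not independent of its rise. The 7 genes had a median log2 fold change of 1.61, where all genes tested had -0.02. The list was chosen with earlier results of these data known. The count and the median are therefore no evidence about Wnt ligands as a family. The tested ligands outside the list, Wnt5b and Wnt16, had -0.53 and -0.30.

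**Figure D2:**
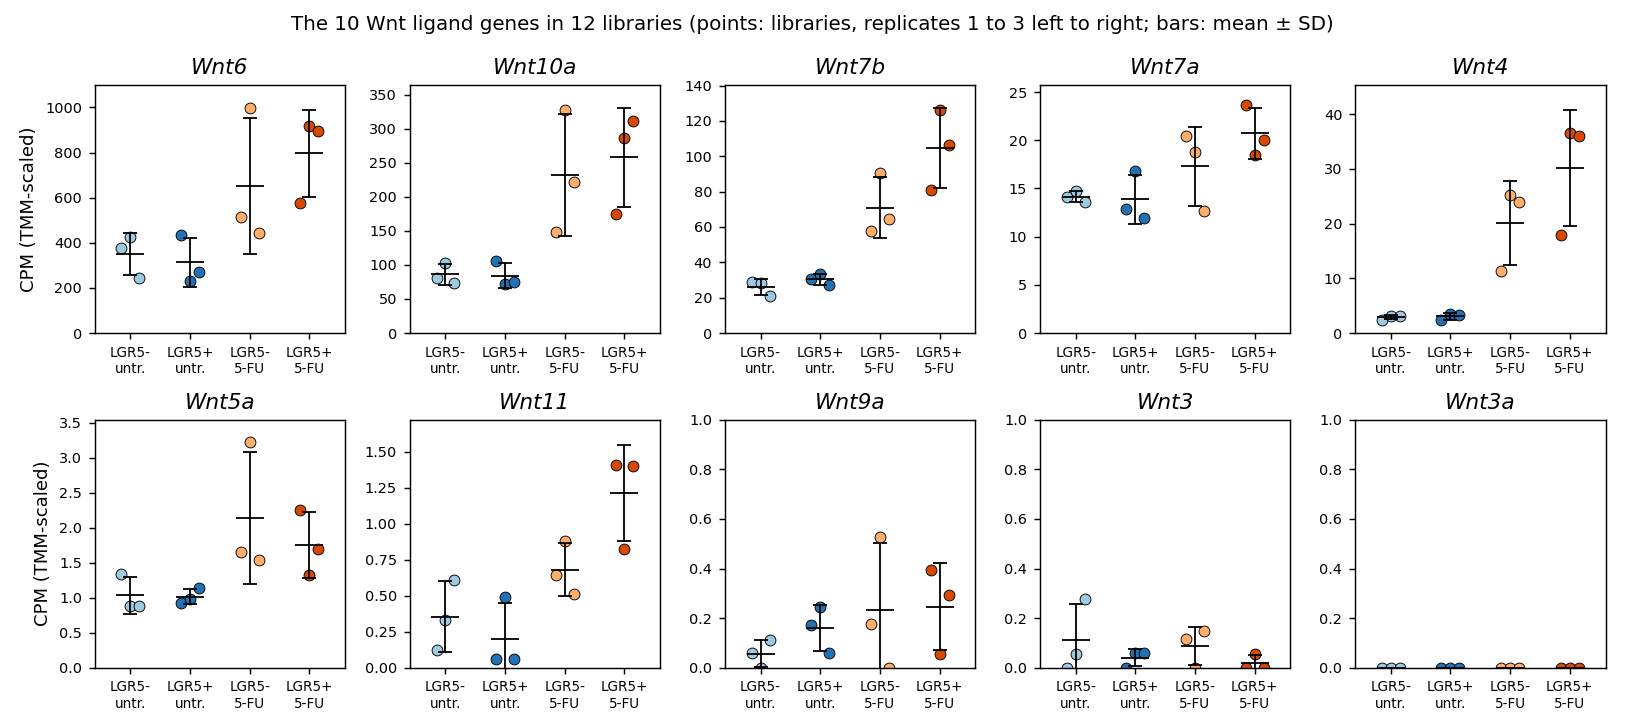
Each panel shows 1 of the 10 Wnt ligand genes, with a point per library (replicates 1 to 3 from left to right), TMM-scaled CPM on a linear axis from 0, and bars for the mean ± SD of 3 libraries. In the panels of Wnt4, Wnt7b, Wnt10a and Wnt6 all 6 libraries of 5-FU-treated cells lie above all 6 untreated ones, and Wnt3a lies at 0 throughout.

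Wnt4, a ligand of kidney and female genital tract development, had the largest fitted fold change. It measured 2.31, 3.50 and 3.35 CPM in untreated LGR5+ replicates 1 to 3, from 40 to 57 reads, and 17.9, 36.6 and 36.1 CPM after 5-FU, from 319 to 665 reads. All treated libraries lay above all untreated ones, and treated replicate 1 was the lowest of its group. The log2 fold change was 3.30 (SE 0.35, 95% confidence interval 2.56 to 4.05, adjusted P = 2.14e-05, edgeR), a 9.88-fold rise. Wnt4 lies at chr4:137277489-137299726 on the plus strand.

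Wnt7b, a ligand of lung and kidney development that acts with RECK and ADGRA2 on brain vessels, measured 30.8, 33.4 and 27.1 CPM untreated and 80.8, 126 and 106 CPM after 5-FU. The groups were far apart against their spread, and the log2 fold change was 1.78 (SE 0.22, interval 1.30 to 2.26, edgeR adjusted P = 9.55e-05). Its closest relative in the family, Wnt7a, a ligand of limb and genital tract patterning, measured 12.9, 16.8 and 11.9 CPM untreated and 23.7, 18.5 and 20.1 CPM after 5-FU. These groups did not overlap either, but the log2 fold change of 0.58 (SE 0.21, interval 0.14 to 1.02) did not pass (edgeR adjusted P = 0.0709). It passed with a replicate block within treatment (adjusted P = 0.0283) and on the compared libraries alone (adjusted P = 0.0361).

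Wnt10a, a ligand of teeth, hair and skin, measured 106, 71.8 and 75.3 CPM untreated and 175, 287 and 311 CPM after 5-FU, a log2 fold change of 1.61 (SE 0.29, edgeR adjusted P = 0.00178). Wnt6, an epithelial ligand that can induce kidney tubules, measured 437, 231 and 272 CPM untreated and 575, 918 and 898 CPM after 5-FU. Its untreated replicate 1 lay nearest to the treated libraries, without overlap, and the log2 fold change was 1.35 (SE 0.34, edgeR adjusted P = 0.0145). In both neighbours untreated replicate 1 was the highest of its group and 5-FU replicate 1 the lowest. Across the 6 untreated libraries both genes moved with Sftpc. Untreated LGR5- replicates 1 and 2 and LGR5+ replicate 1 held 15700 to 17300 CPM of Sftpc, and the other untreated libraries held 3440 to 5760. The former had 379 to 437 CPM of Wnt6 and 81.1 to 106 CPM of Wnt10a, the latter 231 to 272 and 71.8 to 75.3 CPM, without overlap. The part of this in the comparisons was not tested.

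Wnt11 and Wnt5a had few reads. Wnt11, a ligand of cell movement in the embryo, held 1, 8 and 1 reads in untreated LGR5+ and 25, 15 and 24 reads in 5-FU LGR5+ libraries (log2 fold change 2.55, SE 0.74, edgeR adjusted P = 0.0302). Wnt5a, a ligand of planar cell polarity through ROR2, held 16 to 19 reads untreated and 24 to 40 after 5-FU, and its log2 fold change of 0.79 (SE 0.42, interval -0.10 to 1.68) did not pass (adjusted P = 0.226). All 7 genes tested lay higher in every treated than in every untreated LGR5+ library, as did 22.3% of all genes tested. For any single gene, an exact two-sided permutation test of 3 against 3 libraries gives no P under 0.1, and it gave 0.1 for each of the 7.

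By the thresholds of the study's methods, an unadjusted P under 0.05 with a log2 fold change over 1.5 in size, 4 genes rose (Wnt4, Wnt7b, Wnt10a and Wnt11), beside 4.42% of all genes. Without single libraries the values of Wnt10a (1.46 to 1.83) and Wnt6 (1.17 to 1.67) lay on either side of 1.5. Single libraries decided part of the count of 5: it was 3, namely Wnt4, Wnt7b and Wnt10a, without untreated LGR5+ replicate 3, without 5-FU LGR5+ replicate 2 and without 5-FU LGR5+ replicate 3. Wnt6 also did not pass without untreated replicate 2 (log2 fold change 1.17, edgeR adjusted P = 0.0762). Wnt11 also did not pass without untreated replicate 1 (2.12, adjusted P = 0.111) or 5-FU replicate 1 (2.43, adjusted P = 0.0706), and without untreated replicate 2 its log2 fold change was 4.20 (adjusted P = 0.00801).

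In LGR5- cells, Wnt4, Wnt7b and Wnt10a rose with 5-FU, 3 of 7 genes tested, and none fell. Of all genes tested, 8.30% rose and 7.11% fell. Wnt4 measured 2.42, 3.18 and 3.11 CPM untreated and 11.4, 25.2 and 23.9 CPM treated (log2 fold change 2.79, SE 0.34, edgeR adjusted P = 1.28e-04). Wnt7b measured 29.1, 28.5 and 20.7 against 57.8, 90.5 and 64.5 CPM (1.44, SE 0.22, adjusted P = 6.77e-04). Wnt10a measured 81.1, 103 and 74.1 against 148, 327 and 221 CPM (1.43, SE 0.29, adjusted P = 0.00459). None of these groups overlapped. The treated replicate 2 was the highest for all of them, and the treated replicate 1 the lowest.

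The other genes did not pass in LGR5- cells by the fit without a block. Wnt6 measured 379, 424 and 246 CPM untreated and 516, 998 and 443 CPM after 5-FU, without overlap, for a log2 fold change of 0.90 (SE 0.34, interval 0.18 to 1.62, edgeR adjusted P = 0.0892). This call depended on the fit: Wnt6 passed with a replicate block within treatment (adjusted P = 0.0368), by DESeq2 (0.0483), without a filter (0.0492) and without 5-FU LGR5- replicate 3 (log2 fold change 1.15, adjusted P = 0.0472). Without other single libraries the log2 fold change of Wnt6 went down to 0.45 and the edgeR adjusted P up to 0.4. Wnt5a held 16 to 22 reads against 21 to 55 (1.05, SE 0.41, adjusted P = 0.106), also without overlap in CPM. Wnt7a (0.29, SE 0.21) and Wnt11 (0.92, SE 0.71), whose groups overlapped, had adjusted P values of 0.381 and 0.430. Thus 5 of 7 genes did not overlap, with 13.7% of all genes higher in this way. By the study's thresholds 1 gene rose, Wnt4, and 4.25% of all genes did. The median log2 fold change of the 7 genes was 1.05, against -0.05 over all genes tested. The choice of the list limits this median in the same way, and Wnt5b and Wnt16 outside it had -0.62 and -0.39.

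With both libraries of LGR5- replicate 3 left out, which had the larger mitochondrial share, Wnt4, Wnt7b and Wnt10a passed, with log2 fold changes of 2.70 for Wnt4, 1.36 for Wnt7b and 1.37 for Wnt10a (edgeR adjusted P = 0.00288, 0.00167 and 0.0385), and Wnt6 did not (0.92, adjusted P = 0.110).

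**Figure D3:**
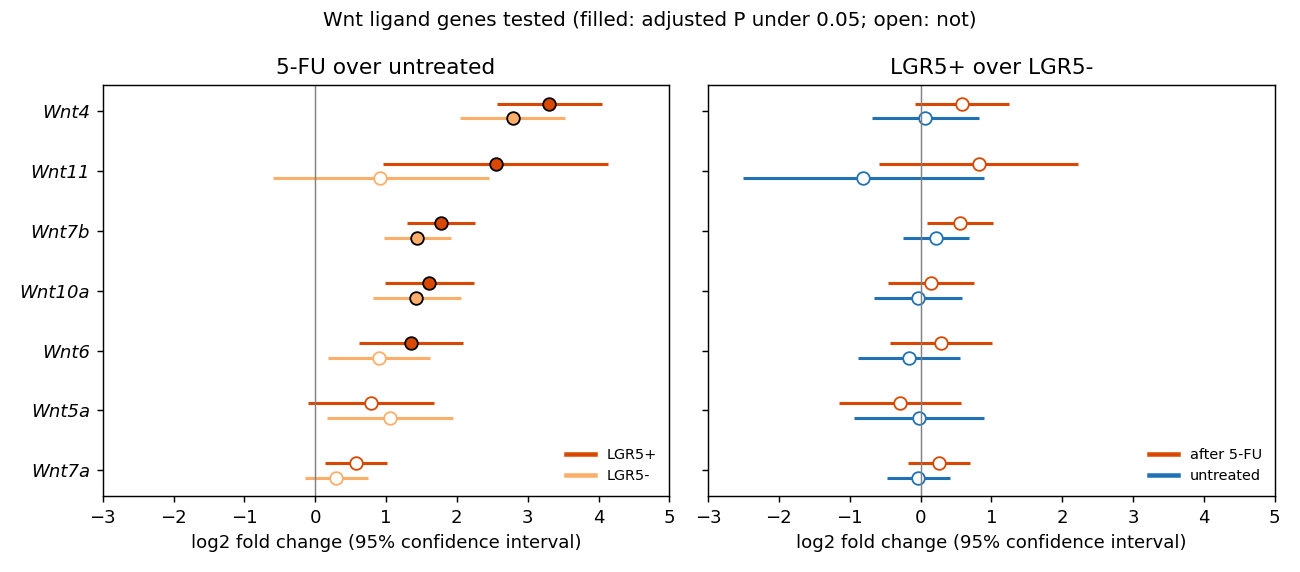
Points are log2 fold changes of the 7 Wnt ligand genes tested, with 95% confidence intervals as lines, for 5-FU over untreated cells (left) and LGR5+ over LGR5- cells (right). Filled points, with an adjusted P under 0.05, are found on the left only, 5 in LGR5+ and 3 in LGR5- cells, with Wnt4 at 3.30 and 2.79.

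Whether the populations differ was asked by comparing LGR5+ with LGR5- cells. In untreated cells none of the 7 genes differed, with log2 fold changes from -0.81 for Wnt11 (SE 0.80, interval -2.51 to 0.90) to 0.22 for Wnt7b (SE 0.22, interval -0.25 to 0.69), and all 7 overlapped. Without single libraries the value of Wnt11 ranged from -2.46 to -0.18. By edgeR 0 genes of the whole table passed (0%), and 1.32% had an unadjusted P under 0.05, among them 0 of the 7. For the most abundant gene, Wnt6, the log2 fold change was -0.16, with an interval of -0.88 to 0.56.

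After 5-FU, 6 of the 7 genes had a mean above that of LGR5- cells, and again none passed. The 7 genes had a median log2 difference of 0.29, against 0.03 over all genes tested. Wnt7b was closest, at 80.8, 126 and 106 CPM in LGR5+ and 57.8, 90.5 and 64.5 CPM in LGR5- replicates 1 to 3, higher in LGR5+ cells in each same-numbered pair. Its log2 difference was 0.56 (SE 0.22, interval 0.09 to 1.02, unadjusted P = 0.0215, edgeR adjusted P = 0.358). For Wnt4 it was 0.58 (SE 0.31, interval -0.08 to 1.25, adjusted P = 0.412), also higher in 3 of 3 pairs (17.9, 36.6 and 36.1 against 11.4, 25.2 and 23.9 CPM). Wnt6, Wnt10a, Wnt7a, Wnt11 and Wnt5a were lower in LGR5+ than in LGR5- replicate 2, Wnt6 with 918 against 998 CPM. The share of all genes higher in 3 of 3 pairs was not computed. By edgeR no gene of the table passed (0%), although 13.0% had an unadjusted P under 0.05, of which 1 was among the 7. DESeq2 called 79 genes of the table, edgeR without a filter 11 and edgeR with a replicate block within treatment 3, none of them a listed Wnt gene. Blocking on the replicate number, which pairs these 6 libraries, gave 0 Wnt genes as well. With the block within treatment the adjusted P was 0.110 for each of Wnt4 and Wnt7b, the lowest over 15 alternatives.

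The rise of more genes in LGR5+ than in LGR5- cells is no difference between the populations by itself, so the difference of the responses was tested. It was 0.52 for Wnt4 (SE 0.47), 0.34 for Wnt7b (SE 0.31), 0.18 for Wnt10a (SE 0.41), 0.45 for Wnt6 (SE 0.47) and 1.63 for Wnt11 (SE 1.04). None passed (edgeR adjusted P = 1 for each), nor did any gene of the table (0%), and 1.57% of the table but 0 of the 7 had an unadjusted P under 0.05. DESeq2 also called 0 of the Wnt genes in these 3 comparisons. Without single libraries the difference of the responses for Wnt11 ranged from 1 to 3.28.

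Neighbouring and closely related genes were also compared within each library. The ratio of Wnt10a to Wnt6 per kb within a library was 0.224 ± 0.0392 and 0.246 ± 0.0305 in untreated LGR5- and LGR5+ cells (SD, n = 3), and 0.330 ± 0.0998 and 0.285 ± 0.0199 after 5-FU, with overlap between treated and untreated libraries. The ratio of Wnt7b to Wnt7a was 1.19 ± 0.182 and 1.44 ± 0.133 untreated and 2.75 ± 0.798 and 3.36 ± 1.11 after 5-FU, 2.25 times higher in either population by geometric means and without overlap. Two-sided exact permutation tests gave P = 0.1 for Wnt7b over Wnt7a in each population, the smallest possible with 3 against 3 libraries, and 0.3 after adjustment over 12 such tests. For Wnt10a over Wnt6 the same exact tests gave P = 0.2 in each population, and 0.343 after adjustment. The 12 tests also held comparisons of LGR5+ with LGR5- cells and the ratio of Wnt4 to Wnt7a. That ratio was 6.36 times higher after 5-FU in LGR5+ and 5.48 times in LGR5- cells by geometric means, without overlap. Its exact permutation P was 0.1 in each population, and 0.3 after adjustment.

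**Figure D4:**
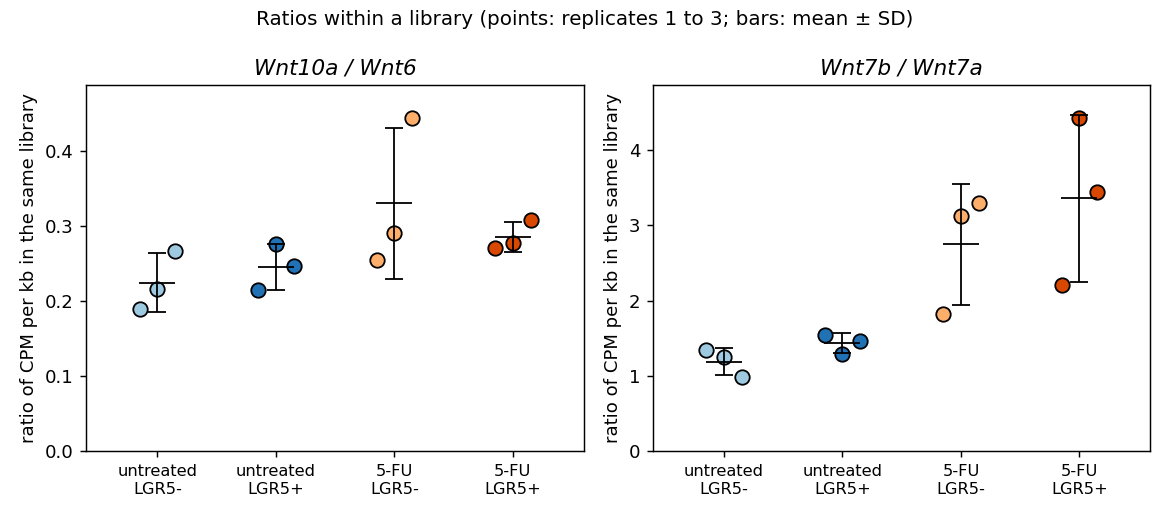
Points show, for each of the 12 libraries, the ratio of Wnt10a to Wnt6 (left) and of Wnt7b to Wnt7a (right) in CPM per kb of exon, with bars for the mean ± SD of each group. The ratio of Wnt7b to Wnt7a lies between 0.99 and 1.55 in untreated and between 1.83 and 4.42 in 5-FU-treated libraries.

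Wnt5b and Wnt16, the tested ligands outside the list, had negative fitted values that did not pass. Wnt5b had log2 fold changes of -0.53 in LGR5+ (SE 0.22, interval -1.01 to -0.05, edgeR adjusted P = 0.124) and -0.62 in LGR5- cells (SE 0.22, interval -1.1 to -0.14, adjusted P = 0.0773). In both populations all treated libraries lay below all untreated ones for Wnt5b. Wnt16 had -0.30 (SE 0.24, adjusted P = 0.443) and -0.39 (SE 0.24, adjusted P = 0.316). Its treated libraries lay below all untreated ones in LGR5+ cells, with overlap in LGR5- cells. The summed level of all 19 genes was 469 ± 126 CPM in untreated and 1230 ± 289 CPM in 5-FU LGR5+ cells, and 503 ± 108 and 1010 ± 404 CPM in LGR5- cells (SD, n = 3), most of it from Wnt6.

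Promoter windows were available for 7 of the 10 genes from RefSeq (GRCm38.p6), 250 bases before to 50 after a gene start. Those of 3 genes that rose in LGR5+ cells are shown up to the start of the GENCODE gene, because nearby starts differ between annotations, with motif matches in capitals.
Wnt6, chr1:74771642-74771891, plus strand: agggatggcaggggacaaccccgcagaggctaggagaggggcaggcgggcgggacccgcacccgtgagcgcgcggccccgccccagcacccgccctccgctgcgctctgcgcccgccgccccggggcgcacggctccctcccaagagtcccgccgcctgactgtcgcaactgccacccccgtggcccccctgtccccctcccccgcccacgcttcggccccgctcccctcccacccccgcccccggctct
Wnt4, chr4:137277385-137277488, plus strand: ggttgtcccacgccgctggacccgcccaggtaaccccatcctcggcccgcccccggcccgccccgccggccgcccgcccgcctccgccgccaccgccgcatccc
Wnt11, chr7:98834862-98835111, plus strand: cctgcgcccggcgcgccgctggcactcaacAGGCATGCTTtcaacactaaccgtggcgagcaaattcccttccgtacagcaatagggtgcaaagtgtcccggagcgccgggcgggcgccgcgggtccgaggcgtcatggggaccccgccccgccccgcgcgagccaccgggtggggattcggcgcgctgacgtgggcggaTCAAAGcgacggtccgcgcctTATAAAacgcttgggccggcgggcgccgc
The windows were searched on both strands for the TCF/LEF core CTTTGA, the AP-1 site TGANTCA, the TATA box TATAAA and the p53 half-site, and no match overlapped another. In all 32817 windows of the table they occurred in 16%, 7.81%, 13.6% and 8.36%. The window of Wnt11 shown held, from its 5′ end, a p53 half-site, a TCF/LEF core on the opposite strand and a TATA box. These letters were not in the windows of Wnt6, Wnt4, Wnt7a, Wnt3, Wnt3a and Wnt9a, nor in a second window of Wnt11. The members' windows were rich in G and C, with 59.3% to 86.3% against a median of 52.7% over all windows. A match describes letters and shows no binding.

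The rest of the pathway was read from lists of its parts. Of 6 genes for acylation, transport and deacylation of Wnt ligands, Wls, the carrier that brings Wnt to the cell surface, rose in LGR5+ cells from 166 ± 35.4 to 269 ± 19.2 CPM (SD, n = 3; log2 fold change 0.70, SE 0.19, edgeR adjusted P = 0.0195). This 1 of 6 stands beside 9.66% of all genes that rose in LGR5+ cells. In LGR5- cells, where 8.30% of all genes rose, none of the 6 passed (Wls 0.38, SE 0.19, adjusted P = 0.199). Porcn, the acyltransferase, had 0.57 (SE 0.21, adjusted P = 0.0851) in LGR5+ cells, and Notum, which removes the lipid, had -0.25 (SE 0.23, adjusted P = 0.516).

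Among 10 Frizzled receptors, Fzd1 rose and Fzd7 and Fzd9 fell in both populations. For the 1 of 10 that rose this is near the share of all genes that rose (9.66% in LGR5+ and 8.30% in LGR5- cells), and 6.37% and 7.11% of all genes fell. Fzd1 had log2 fold changes of 0.60 in LGR5+ and 0.70 in LGR5- cells (edgeR adjusted P = 0.0479 and 0.0239), and Fzd9, at 0.618 to 3.15 CPM, had -1.81 and -1.24. Fzd7 went from 36.6 ± 5.91 to 22.4 ± 2.83 CPM in LGR5+ cells (log2 fold change -0.71, SE 0.18, edgeR adjusted P = 0.0168). Of 8 co-receptors and other receptors, Ror1 fell in both populations (-0.89 in LGR5+ and -0.84 in LGR5- cells), and Lrp5, Lrp6, Reck and Adgra2 did not pass. Of 11 secreted inhibitors, 5 could be tested. Dkk2 rose in both populations (0.61 and 1.05), Dkk4 fell in LGR5+ cells (-1.98) and Dkk3 in LGR5- cells, from 6.43 ± 1.68 to 2.26 ± 0.584 CPM. None of the 6 tested R-spondins and receptors, Lgr5 included, passed. R-spondin genes Rspo1, Rspo2 and Rspo3 held at most 2 reads.

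Of 10 beta-catenin target genes, Cd44, Ccnd1 and Ascl2 rose in both populations, and Tcf7 fell in LGR5+ cells. Of all genes tested 9.66% rose and 6.37% fell in LGR5+ cells, and 8.30% rose and 7.11% fell in LGR5- cells. Cd44, a cell adhesion receptor, rose by 1.66 (SE 0.25, edgeR adjusted P = 3.81e-04) in LGR5+ and by 1.72 (SE 0.25, adjusted P = 3.91e-04) in LGR5- cells on the log2 scale. Ccnd1, a cyclin of the cell cycle, rose by 1.49 (SE 0.26) and 1.20 (SE 0.26). Ascl2, a stem cell factor, rose by 0.72 and 0.71 (SE 0.20 each). Tcf7, a TCF/LEF factor, fell by 0.74 (SE 0.22). The feedback inhibitor Axin2 had -0.57 (SE 0.23, adjusted P = 0.105) in LGR5+ and -0.24 (SE 0.22, adjusted P = 0.532) in LGR5- cells, and Nkd1 had -0.78 (SE 0.30, adjusted P = 0.0918) and -0.82 (SE 0.30, adjusted P = 0.0801). The list had a median of -0.39 in LGR5+ and -0.06 in LGR5- cells, against -0.02 and -0.05 over all genes tested.

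Some genes from lists of cell type markers, among them epithelial markers abundant in every library, moved with 5-FU beside the Wnt genes. In bulk samples, more RNA of a gene per cell and more cells that express it cannot be told apart. The counts of markers stand beside 9.66% of all genes tested that rose in LGR5+ and 8.30% in LGR5- cells. Of 6 markers of stratified epithelium 5 rose in both populations. The list summed to 31.2 to 97.2 CPM in the 6 untreated libraries, 160 to 449 in 5-FU LGR5- and 731 to 1310 CPM in 5-FU LGR5+ libraries. Trp63, which defines the basal layer, held 34 to 132 reads and did not pass. Of 6 bile duct and epithelial markers the keratins Krt7, Krt8, Krt18 and Krt19 rose in both populations, Krt19 by 2.95 in LGR5+ and 2.35 in LGR5- cells on the log2 scale. The others did not pass, with log2 fold changes of -0.13 and -0.50 for Epcam and 0.22 and 0.05 for Sox9. Of 5 leukocyte and macrophage markers 3 could be tested, and Cd68 (by 2.06 in LGR5+ and 1.95 in LGR5- cells) and Lyz2 (by 1.79 and 3.56) rose. The list summed to 12.4 to 39.8 CPM untreated and 72.9 to 130 CPM after 5-FU, mostly from Cd68 and Lyz2. Ptprc held 3 to 36, Csf1r 0 to 11 and Adgre1 0 to 7 reads. Of 7 hepatocyte markers 2 could be tested, and of these Afp rose in both populations and Alb did not pass. The list summed to 10.5 to 22.4 CPM untreated and 26.0 to 56.5 CPM after 5-FU, nearly all of it Afp. The fibroblast markers Lum and Col1a2 held 0 and at most 1 read, though Dcn held 430 to 870. Of 7 fibroblast markers 2 had enough reads for a test, Dcn, which did not pass, and Pdgfrb, which fell in both populations, and the list summed to 41.0 to 50.2 CPM untreated and 26.2 to 60.9 CPM after 5-FU. Of 5 endothelial markers 4 held at most 10 reads in every library, and the list summed to 1.67 to 4.12 CPM. Of 5 lung alveolar markers Napsa rose in LGR5- cells (log2 fold change 1.51, and 0.88 without passing in LGR5+ cells). The list summed to 3510 to 17400 CPM untreated and 2730 to 6150 CPM after 5-FU, nearly all of it Sftpc. Sftpc had -1.03 in LGR5+ and -1.26 in LGR5- cells, and did not pass. Sftpa1 (1.85 in each), Nkx2-1 (0.22 and 0.26) and Sftpb (0.38 and -0.35) did not pass either. Whether other cells were present, and what part they had in the values of the Wnt genes, was not tested.

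The genes most like Wnt4 and Wnt7b were found by the root mean square difference between profiles over 12 libraries, among 16156 other genes. A profile was the log2 of CPM plus 0.5, centred on its mean. The added 0.5 shrinks the steps of genes with low levels, such as Edn1 (0.696 CPM in untreated and 12 CPM in 5-FU LGR5+ cells). For Wnt4 they were Dusp1, a phosphatase of MAP kinases (0.18), Edn1, the vasoconstrictor endothelin-1 (0.26), and Anxa3, an annexin (0.28). Dusp1 measured 8.29 ± 1.30 CPM in untreated and 67.2 ± 28.7 CPM in 5-FU LGR5+ cells (SD, n = 3), where Wnt4 measured 3.05 ± 0.648 and 30.2 ± 10.6. For Wnt7b they were Tbc1d2, BC029722 and the adhesion molecule Icam1, each at 0.16. All of these profiles are dominated by the step between untreated and treated libraries, which they share.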

How the data were processed

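RNA of sorted organoid cells was amplified with a SMARTer (SMART-Seq v4) kit by the authors and sequenced as paired-end reads. The deposited table holds whole-number read counts without normalization for 47069 Ensembl mouse genes in 12 libraries, and 46574 identifiers matched GENCODE M21. The submitters' processing notes name HISAT2, HISAT, TopHat2, HTSeq and the build mm8, without roles. The treatment of reads that match several genes is not given in the sources used here. Positions and lengths were taken from GENCODE M21 (GRCm38), and so describe the annotation used here. Groups came from the sample titles.

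Counts were filtered by filterByExpr, scaled by TMM and fitted on 4 group means with glmQLFit (robust) in edgeR 4.0.16 (R 4.3.3). Contrasts were tested by glmQLFTest over 16157 genes, with Benjamini-Hochberg adjustment and a threshold of 0.05. The dispersion common to all genes (0.0708) corresponds to a coefficient of variation of 26.6% between libraries. Intervals are 95% and use the degrees of freedom of the test. DESeq2 1.42.0, other scalings and filters, a replicate block, fits on the compared libraries and fits without single libraries were tried as alternatives. The procedure was also run on counts simulated for independent libraries from the kind of model that the fit assumes. This cannot show how it behaves with libraries that deviate together. No pair of libraries agreed within sampling noise. Same-numbered LGR5+ and LGR5- libraries deviated together after 5-FU (r = 0.65, 0.26 and 0.36 over genes), so these were taken as paired by the data. In untreated cells r was 0.55, -0.12 and 0.26.

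Named genes are all 10 members, the other Wnt ligand genes, up to 3 called genes with the smallest P per other list and comparison, and the 3 genes most like each of the 2 members with the smallest adjusted P in LGR5+ cells. Further genes of these lists were named after their values were seen, for their role in the pathway or as defining markers. The members and lists were chosen with earlier results of these data known.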

Additional observations from a re-analysis of the deposited data

How the results depend on the processing

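Wnt4, Wnt7b and Wnt10a rose with 5-FU under each of 14 alternatives in LGR5+ and 15 in LGR5- cells. In LGR5+ cells Wnt6 passed under 10 of 14 (adjusted P = 0.00109 to 0.0762) and Wnt11 under 8 of 13 (0.00801 to 0.129), and the count of members that rose, 5, was 3 to 4 without single libraries, 4 where each library had to hold 10 reads or more, and 6 on the compared libraries alone, where Wnt7a also passed. In LGR5- cells the count of 3 was 3 to 4 throughout, with Wnt6 passing under 4 of 15 (no filter, DESeq2, a replicate block within treatment, and without 5-FU LGR5- replicate 3). A replicate block over all libraries gave 5 and 3, and the replicate block within treatment 6 and 4. In the pairs after 5-FU the block changed no call, and it left 0 members in the 3 comparisons without calls. Over all genes 2590 and 2489 were called in LGR5+ and LGR5- cells, but 4045 and 1282 on the compared libraries alone, 4009 and 3752 with the block within treatment, and 1373 to 2488 and 1562 to 3418 without single libraries. After 5-FU, 0 genes separated LGR5+ from LGR5- cells, but 79 by DESeq2, 11 without a filter and 3 with the block within treatment. Values that changed sign were small and not called. In untreated cells these were Wnt5a (0.01) and Wnt7a (0.01) without a filter and Wnt10a (0.01) under the replicate block. Without single libraries they ranged from -0.04 to 0.25 for Wnt4, -0.12 to 0.20 for Wnt5a, -0.47 to 0.02 for Wnt6, -0.18 to 0.08 for Wnt7a and -0.22 to 0.12 for Wnt10a. After 5-FU they ranged from -0.08 to 0.49 for Wnt10a and -0.51 to 0.15 for Wnt5a, and for the difference of responses from -0.05 to 0.52 and -0.49 to 0.17. The causes were not tested. Depth limits Wnt11, Wnt5a, Wnt9a and Wnt3, which held at most 55 reads in a library.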
